A study of Mus musculus with 8 samples.

Results

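Stimulated and unstimulated mouse CD4+ T cells were compared in the presence of dorsomorphin, a kinase inhibitor, to see which genes still differed with stimulation. The comparison used 4 of the 8 Affymetrix arrays of the series, 2 of stimulated and 2 of unstimulated dorsomorphin-treated cells, chosen by their labels alone. The cells came from BALB/c mice and were primary CD4+ T cells kept in culture, with no transgene or deletion named. In the stimulated groups an antibody to CD3 fixed to the plate and a soluble antibody to CD28 were present for 1 h before the inhibitor or its solvent was given. Dorsomorphin at 4 µM, or DMSO in the groups without it, was then present for 6 h, in stimulated and unstimulated cells alike. The other 4 arrays, 2 of control and 2 of stimulated cells without dorsomorphin, gave the response against which the difference under dorsomorphin was set. No source used here says whether the 2 arrays of a group came from separate mice or cultures, so a p-value here reflects how far these arrays lie apart, a spread that may be technical, and 2 arrays per group limit the precision of every value.

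T cell receptor and CD28 signals act through calcium and calcineurin, the MAP kinases and NF-kappaB, and soon induce transcription factors of the Egr and Nr4a families. Cytokines such as interleukin 2, their receptors, and the machinery for ribosome building and biosynthesis follow over the next hours. Dorsomorphin is known as an inhibitor of the AMP-activated kinase and of BMP type I receptors, and it acts on other kinases too.

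Each of 18193 genes was represented by 1 probe set, and 13983 were tested. Levels are log2 of the deposited signal, and differences are stimulated minus unstimulated cells, both with dorsomorphin, unless said otherwise. A working floor of log2 5.22, a signal of 37.3, was taken from the 40th percentile over the table, below which the order of values was not read. Groups were called separated where the lowest array of the higher group lay above the highest array of the lower group and both arrays of the higher group lay above the floor. The distance between those arrays is the gap. The median signal of an array lay between 45.4 and 74.5, and every array had the same trimmed mean of 500, so scaling had been done before deposit. The labelled cell type was checked on its markers. Cd3e, a chain of the T cell receptor complex, read log2 10.75 and 9.62 in unstimulated and 10.54 and 9.85 in stimulated cells, and Cd4 read 9.44 and 7.97 against 9.23 and 8.34. Cd8a, which marks the other main T cell lineage, lay between 4.34 and 6.81. Lyz2, a lysozyme gene of myeloid cells, read 9.40 and 9.30 against 8.91 and 8.95, so transcripts of other cells were present on all 4 arrays. In bulk RNA, fewer cells of a type and less RNA per cell cannot be told apart.

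No gene passed limma at an adjusted p of 0.05 for stimulation under dorsomorphin: 0 were called higher (0%) and 0 lower (0%). The smallest adjusted p was 0.0897, for Galnt9, Metrnl and Actrt3. At an unadjusted p under 0.05, 398 genes were higher (2.85%) and 141 lower (1.01%), 3.85% in all. Without dorsomorphin the same fit called 1256 genes up (8.98%) and 2013 down (14.4%). In simulated data for this comparison with 13983 genes, changes of 2-fold were recovered for 0% of altered genes, 4-fold for 30%, 16-fold for 78% and 64-fold for 86%. The results below are therefore given as values and as separation between arrays.

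By separation, 2118 genes were higher with stimulation under dorsomorphin (15.1%) and 1255 lower (8.98%). Without dorsomorphin 3337 genes were higher (23.9%) and 5567 lower (39.8%). The split under dorsomorphin depended on the scaling of the arrays: with each array centred on its median, 1370 genes were higher and 2297 lower. The median difference of all genes was 0.06 as deposited and -0.08 after centring, so differences of that size carry no direction. A gap of at least 0.5 log2 units was met by 370 genes on the higher side (2.65%) and 133 on the lower side (0.951%). A gap of at least 1 log2 unit, 2-fold, was met by 125 genes on the higher side (0.894%) and 48 on the lower side (0.343%), against 1035 (7.4%) and 1796 (12.8%) without dorsomorphin. On either side of that limit lay Lhx5 with a gap of 1.00 and Efna4 with 0.998 among higher genes, and Hdgfl1 with 1.02 and Sat2 with 0.972 among lower genes.

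Most of these wide gaps came from dim genes. Of the 125 genes on the higher side, 112 had both unstimulated arrays under the floor, and 116 had a mean below log2 6.9 in the stimulated cells. Their median signal in stimulated cells was 64.8, and against the floor their median difference was at least 1.66-fold. Of the 48 genes on the lower side, 46 lay under the floor in stimulated cells, with a median of at least 1.49-fold. Among the 10015 genes above the floor on all 4 arrays, 1600 were separated upward (16%) and 1017 downward (10.2%), but a gap of at least 1 log2 unit was met by 5 genes upward (0.0499%) and 1 downward (0.00999%). The plot of difference against level shows this narrowing.

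**Figure D1:**
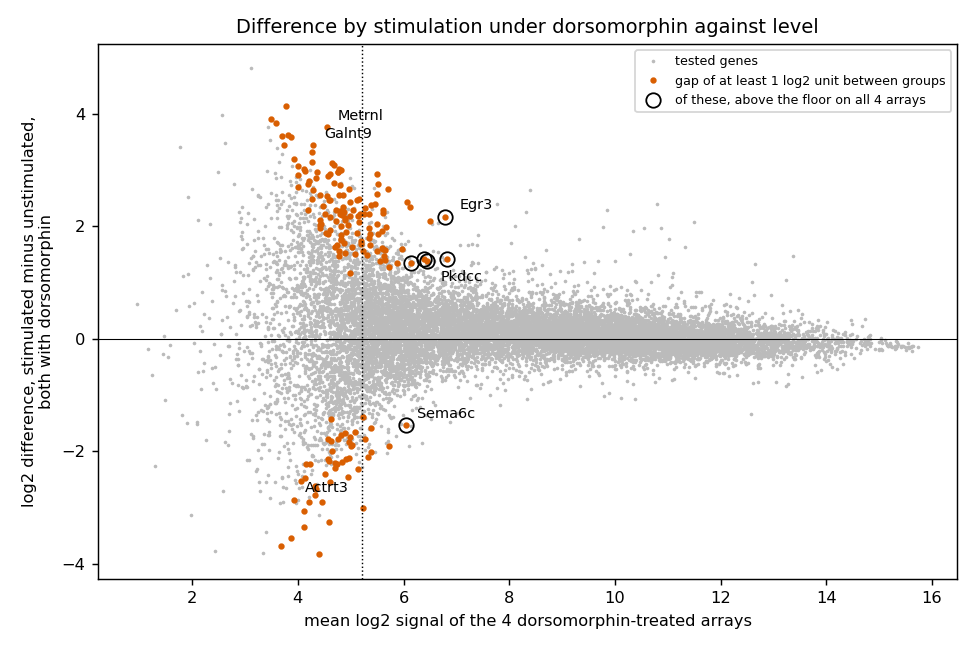
Difference with stimulation under dorsomorphin (y axis, log2) against the mean log2 signal of the 4 dorsomorphin-treated arrays (x axis) for 13983 tested genes; orange points are the 125 higher and 48 lower genes with a gap of at least 1 log2 unit, black rings the 5 and 1 of them above the floor (dotted line) on all 4 arrays. The orange points crowd at and below the floor of log2 5.22, and Egr3 is the highest ringed gene.

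The genes that rose or fell without dorsomorphin kept little of that change. The 1256 genes called up by stimulation alone had a median difference of 1.70 without dorsomorphin and 0.17 with it, where the median of all tested genes was 0.06. That 0.17 became 0.01 after median centring (all genes -0.08), 0.10 after loess and 0.08 after quantile normalization, and it was -0.01 without stimulated dorsomorphin replicate 2 and 0.39 without replicate 1. Of these 1256 genes, 950 had a difference above 0 (75.6%, against 57.5% of all genes). Among the 1256, 310 were separated upward (24.7%, against 15.1% of all genes) and 44 downward (3.50%, against 8.98%). An upward gap of at least 1 log2 unit was met by 7 (0.557%, against 0.894% of all genes). Wide gaps came mostly from dim genes, so these shares do not compare like genes. Above the floor on all 4 arrays the shares were 1 of 1132 (0.0883%) against 5 of 10015 (0.0499%). The 2013 genes called down had a median of -1.71 without dorsomorphin and -0.03 with it. Among them 333 were separated downward (16.5%, against 8.98% of all genes) and 242 upward (12.02%, against 15.1%). The small downward shift kept its sign under each other scaling, and was 0.13 at its highest when 1 of the 8 arrays was left out. Both sets were called by a fit whose spread came from all 8 arrays, the dorsomorphin-treated ones included. Genes whose replicates lie close together were thus more easily called, which can raise the shares separated either way.

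The upward shift came mainly from 1 array. Between the arrays numbered 1 the median difference of the called-up genes was 0.02, equal to that of all genes (0.02), and between the arrays numbered 2 it was 0.32 (all genes 0.08). The number is used here only to name an array, as no source used here says whether it pairs arrays. Of the called-up genes, 784 (62.4%) had their highest value among the 4 arrays on stimulated dorsomorphin replicate 2, against 27.3% of all genes, and 173 (13.8%) had it on replicate 1, against 30.8%. Of the called-down genes, 919 (45.7%) had their lowest value on that same array, against 28.3% of all genes. Replicate 2 was also the more like the arrays of cells stimulated without dorsomorphin, with Pearson correlations across all tested genes of 0.888 and 0.875, where replicate 1 had 0.867 and 0.841.

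**Figure D2:**
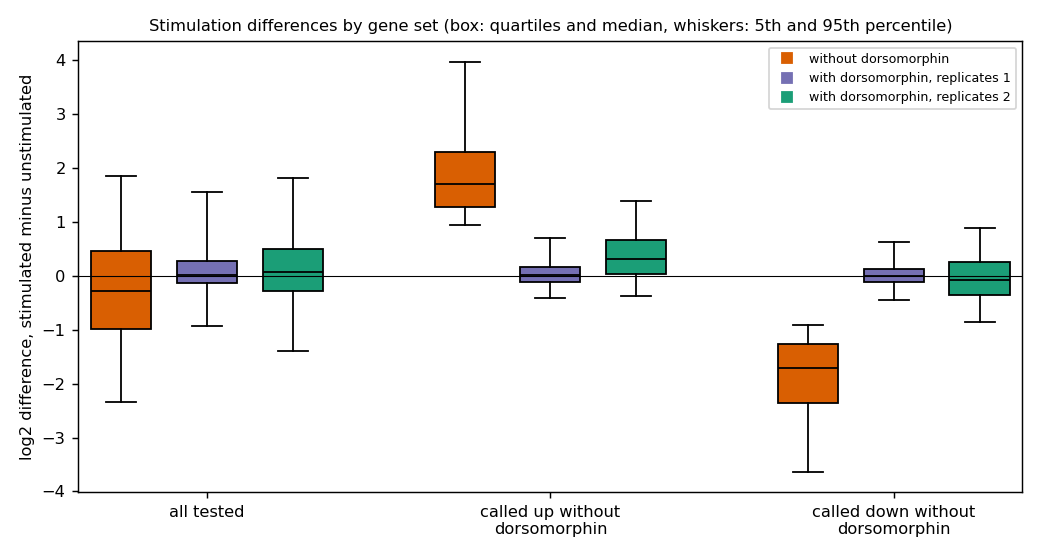
Log2 difference with stimulation (y axis) for all 13983 tested genes, the 1256 called up and the 2013 called down without dorsomorphin; orange boxes are the difference without dorsomorphin, purple boxes the arrays numbered 1 and green boxes the arrays numbered 2 with it. The purple boxes of the called-up and called-down genes centre on 0.02 and -0.01, and the green box of the called-up genes on 0.32.

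Across the 13983 genes the stimulation differences with and without dorsomorphin, which share no array, had a Pearson r of 0.105 (Spearman rho 0.135), given as a description since genes are not independent replicates and share array scaling. Among the 10015 genes above the floor on all 4 arrays r was 0.258. With the arrays numbered 1 alone r was 0.0045, and with those numbered 2 it was 0.136. Leaving out stimulated dorsomorphin replicate 2 turned r to -0.0622, and leaving out replicate 1 raised it to 0.212.

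Of the Egr and Nr4a families, Egr1, Egr2, Egr3, Nr4a1, Nr4a2 and Nr4a3 were higher on both stimulated arrays. Egr4 was not: it read 4.20 and 4.25 in unstimulated and 6.12 and 3.94 in stimulated cells, under the floor on 3 of the 4 arrays. Egr3, a zinc finger transcription factor induced by receptor signals, read log2 5.92 and 5.47 in unstimulated cells and 7.43 and 8.29 in stimulated cells. The groups did not overlap, and the gap of 1.51 was the widest of the genes above the floor on all 4 arrays. The difference was 2.17 ± 0.64 (SE, n = 2 arrays per group; 4.50-fold; limma p 0.0149, adjusted p 0.953). Without dorsomorphin the levels were 6.64 and 5.09 against 13.35 and 12.33, a difference of 6.97, so 31.1% of the log2 response was seen with it. The other probe set of Egr3 showed a difference of only 0.10 with overlapping arrays.

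Egr2, which restrains and shapes T cell activation, read 6.51 and 6.74 in unstimulated and 7.41 and 7.97 in stimulated cells. Its difference of 1.06 ± 0.30 (SE; limma p 0.0131, adjusted p 0.917) compared with 6.20 without dorsomorphin, and both of its probe sets were separated upward. Egr1, an immediate early factor, read 8.93 and 8.53 against 9.43 and 10.76, a difference of 1.37 ± 0.55 (SE) where stimulation alone gave 3.57. Of Egr1's stimulated arrays, replicate 2 was the higher.

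Nr4a1 (Nur77), an orphan nuclear receptor used as a gauge of receptor signal strength, read 9.47 and 9.16 in unstimulated and 10.18 and 11.20 in stimulated cells. The difference was 1.38 ± 0.69 (SE) with dorsomorphin and 3.90 without. Nr4a2 read 7.48 and 7.36 against 8.04 and 8.02, a difference of 0.62, and Nr4a3 read 9.05 and 9.01 against 9.47 and 9.74, a difference of 0.58. Their differences without dorsomorphin were 2.52 and 4.61. All 3 Nr4a genes were separated, with gaps of 0.72, 0.55 and 0.42, and 5 of the 6 probe sets of Nr4a2 and 2 of the 3 of Nr4a3 were separated upward too. Leaving out any 1 of the 8 arrays kept the differences of Egr1, Egr2, Egr3 and Nr4a1 above 0, with ranges of 0.70 to 2.03, 0.78 to 1.35, 1.74 to 2.60 and 0.87 to 1.88.

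**Figure D3:**
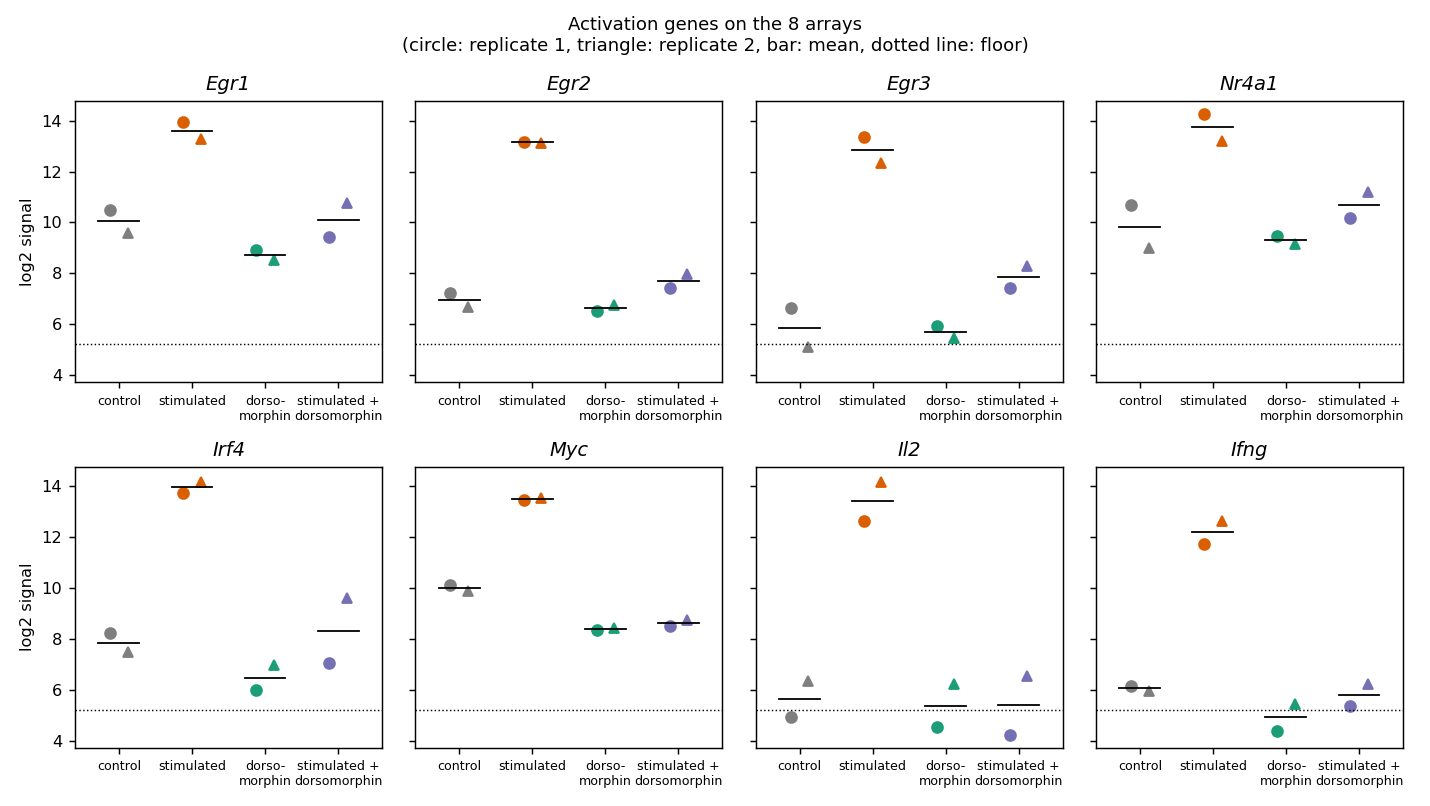
Log2 signal (y axis) of 8 activation genes in the 4 groups, 2 arrays each; circles are replicate 1, triangles replicate 2, bars the group mean and the dotted line the floor at log2 5.22. Egr1, Egr2, Egr3 and Nr4a1 lie higher on both stimulated dorsomorphin arrays than on both dorsomorphin arrays, Irf4 mainly on replicate 2, and Il2 overlaps.

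The 250 bases before the start of Egr2 and Nr4a1 are shown because these promoters belong to genes that were higher on both arrays. They come from RefSeq (GRCm38.p6), with matches to 7 searched motifs in capitals. Egr2 lies at chr10:67537619-67537868 on the plus strand, the window of 1 of its 5 listed starts, and Nr4a1 at chr15:101266596-101266845 on the plus strand.
Egr2: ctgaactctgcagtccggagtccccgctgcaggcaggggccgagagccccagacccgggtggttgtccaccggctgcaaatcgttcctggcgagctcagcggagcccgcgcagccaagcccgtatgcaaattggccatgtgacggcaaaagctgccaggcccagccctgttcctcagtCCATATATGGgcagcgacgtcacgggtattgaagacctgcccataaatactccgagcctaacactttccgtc
Nr4a1: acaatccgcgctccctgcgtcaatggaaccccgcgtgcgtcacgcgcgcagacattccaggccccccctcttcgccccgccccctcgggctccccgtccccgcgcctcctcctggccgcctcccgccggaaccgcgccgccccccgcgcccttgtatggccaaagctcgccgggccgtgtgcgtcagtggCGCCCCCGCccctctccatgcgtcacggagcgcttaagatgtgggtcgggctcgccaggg
The capitals in Egr2 are a CArG box, the site of serum response factor, whose first base lies 72 bases before the start. Those in Nr4a1 are an EGR motif (GCGNGGGCG, here on the other strand) whose first base lies 60 bases before the start. Of 32851 RefSeq windows of this length, 1.47% held a CArG box and 4.70% an EGR motif on either strand. No match was found in either window for AP-1 (TGANTCA, in 6.75% of all windows), CRE (TGACGTCA, 1.55%), E-box (CACGTG, 6.02%), NF-kappaB (1.41%) or ISRE (2.98%). A match describes letters and not a bound site.

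Of 29 measured immediate early and activation-induced transcription factors, 10 were separated upward and 1 downward (15.1% and 8.98% of all genes). Their median difference was 0.27. None passed limma. Irf4, a factor whose level follows receptor signal strength, read 5.98 and 6.97 against 7.05 and 9.60, so its difference of 1.85 ± 0.86 (SE) rested mainly on replicate 2. Irf8 did likewise, with 6.70 and 6.42 against 6.87 and 9.59. Hivep3 read 6.04 and 5.59 against 5.90 and 8.31, overlapping between groups. Myc, the growth regulator, read 8.35 and 8.42 against 8.53 and 8.73, a difference of 0.25 ± 0.21 (SE) where stimulation alone gave 3.51. The Fos and Jun family members Fos, Fosb, Fosl1, Jun, Junb and Jund all overlapped between groups.

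Of 16 measured MAP kinase feedback genes, 4 were separated upward and 3 downward (15.1% and 8.98% of all genes). The median was 0.25, and 0.04 over the 13 above the floor on all 4 arrays. Dusp2, a nuclear MAP kinase phosphatase, read 10.09 and 9.81 against 10.64 and 10.51. Spry1, a feedback inhibitor of receptor signalling, read 6.89 and 6.78 against 7.28 and 7.46, a difference of 0.53 ± 0.25 (SE) compared with 5.82 without dorsomorphin. Both genes were higher on both stimulated arrays by under 1 log2 unit.

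Of 19 measured T cell cytokines, 14 were called up by stimulation alone (8.98% of all genes were), with a median of 4.00. Under dorsomorphin 6 of the 19 lay under the floor on all 4 arrays, and only 7 lay above it on all 4, so the level of most could not be ordered. The median of those 7 was -0.05, and 3 of the 19 were separated upward (15.1% of all genes were) and 0 downward (8.98%). Il2, the growth factor of activated T cells, read 4.53 and 6.24 in unstimulated and 4.23 and 6.55 in stimulated cells, a difference of 0.01 ± 1.05 (SE) against 7.78 without dorsomorphin. Il2's arrays overlapped between the groups. Il3, another early T cell cytokine, rose with stimulation alone, from 1.54 and 2.14 to 9.27 and 10.09, and lay under the floor on all 4 arrays with dorsomorphin.

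Ifng, the type 1 helper cytokine, read 4.39 and 5.46 against 5.37 and 6.24, and Tnf read 5.97 and 7.24 against 6.98 and 8.12. Their differences of 0.88 ± 0.52 and 0.95 ± 0.60 (SE) were within the overlap of the arrays. Ifng lay under the floor on dorsomorphin replicate 1, and its difference was 0.46 with that value raised to the floor. Il17a, the cytokine of type 17 helper cells, was separated by 1.25, from 4.85 and 3.87 up to 6.10 and 6.54, which is at least 2.14-fold above the floor. Without dorsomorphin it rose by 4.86. Il4, of type 2 helper cells, read 5.35 and 2.005 against 5.54 and 5.64, so its difference of 1.91 rested on 1 dim unstimulated array.

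Chemokines had a median difference of 0.86 over 12 measured genes, with 3 separated upward and 0 downward (15.1% and 8.98% of all genes). Only 6 of the 12 lay above the floor on all 4 arrays, with a median of 0.21, and raising dim values to the floor gave 0.36 for the whole list. Ccl22, a ligand of the receptor CCR4, read 6.55 and 6.47 against 7.13 and 7.70, a difference of 0.91 ± 0.37 (SE; limma p 0.0490, adjusted p 1.00). Ccl17, the other ligand of that receptor, read 3.51 and 4.79 against 5.49 and 5.87, at least 1.37-fold. Ccr4 itself read 4.35 and 2.21 against 6.07 and 6.42, at least 2.03-fold. All 3 were higher on both stimulated arrays, though Ccl17 and Ccr4 lay under the floor in unstimulated cells. Xcl1, lymphotactin, read 4.90 and 4.05 against 3.71 and 6.87 and overlapped. The median of the list was 0.34 without stimulated dorsomorphin replicate 2 and 1.46 without replicate 1.

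Surface molecules of activation and costimulation had a median difference of 0.56 over 24 measured genes, with 9 separated upward and 1 downward (15.1% and 8.98% of all genes). After median centring 5 were separated upward and 2 downward, where 1370 and 2297 of all 13983 genes were. Tnfrsf9 (4-1BB), a costimulatory receptor, read 7.66 and 7.89 against 8.49 and 9.73, a difference of 1.34 ± 0.53 (SE), and all 3 of its probe sets were separated. Tnfrsf18 (GITR) read 11.28 and 11.16 against 11.67 and 12.42. Il2ra, the high-affinity interleukin 2 receptor chain, read 5.73 and 6.19 against 5.77 and 8.33, and Cd274 (PD-L1) read 8.39 and 9.19 against 8.96 and 12.58. These last genes were high on replicate 2 only. Cd69, an early activation marker, read 10.99 and 12.11 against 11.30 and 11.78, a difference of -0.01 ± 0.48 (SE) where stimulation alone gave 3.59. The list's median was 0.25 without stimulated dorsomorphin replicate 2 and 0.83 without replicate 1.

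Interferon-stimulated genes, which encode antiviral and cell-autonomous defence proteins, had a median difference of 0.89 over 26 measured genes. Of these, 14 were separated upward and 1 downward (15.1% and 8.98% of all genes), and 23 had a difference above 0 (57.5% of all genes). None passed limma. With each array centred on its median, 7 were separated upward and 2 downward, where 1370 and 2297 of all 13983 genes were. The list's median was then 0.75. The summed signal of the list was 20446 and 25213 in unstimulated cells and 28303 and 105977 in stimulated cells. Replicate 2 thus carried most of the excess: 18 of 26 genes had their highest value on it, the median difference was 1.46 between the arrays numbered 2 and 0.33 between those numbered 1, and it was 0.37 with replicate 2 left out. In cells stimulated without dorsomorphin the sums were 102380 and 45820, so the spread between arrays was wide there too. Without dorsomorphin 1 of the 26 genes was called up (8.98% of all genes were).

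Irgm1, an immunity-related GTPase, read 9.50 and 9.65 in unstimulated and 10.27 and 12.80 in stimulated cells, a difference of 1.96 ± 0.89 (SE; limma p 0.0699). The guanylate-binding protein gene Gbp3 read 10.05 and 10.24 against 10.87 and 12.94, and Gbp2 read 9.11 and 10.08 against 10.23 and 13.76. Iigp1 read 8.45 and 8.97 against 9.24 and 12.75. In each of these genes both stimulated arrays lay above both unstimulated ones, by 0.15 to 0.63 log2 units, with replicate 2 over 2 units above replicate 1. Oas2, an antiviral synthetase, was the 1 gene separated downward, from 5.26 and 6.04 to 4.54 and 3.96, at least 1.34-fold.

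Promoters of Irgm1 and Gbp3 are shown because these genes had the widest upward gaps of the list. Irgm1 lies at chr11:48871421-48871670 on the minus strand and Gbp3 at chr3:142559794-142560043 on the plus strand, the window of 1 of its 2 listed starts (RefSeq, GRCm38.p6, 250 bases before the start, matches in capitals).
Irgm1: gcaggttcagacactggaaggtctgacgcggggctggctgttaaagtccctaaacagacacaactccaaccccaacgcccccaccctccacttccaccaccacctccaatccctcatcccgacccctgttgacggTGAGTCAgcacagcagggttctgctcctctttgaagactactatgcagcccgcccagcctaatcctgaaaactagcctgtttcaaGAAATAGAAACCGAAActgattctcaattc
Gbp3: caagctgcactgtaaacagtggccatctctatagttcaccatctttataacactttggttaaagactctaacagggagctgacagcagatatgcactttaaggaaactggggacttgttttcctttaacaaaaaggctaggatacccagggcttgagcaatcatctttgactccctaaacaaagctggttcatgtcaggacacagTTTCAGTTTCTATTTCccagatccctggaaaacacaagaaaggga
Each window held 2 overlapping ISRE matches, the interferon-stimulated response element, starting 30 and 24 bases before the start in Irgm1 and 45 and 39 bases before it in Gbp3, where they read on the other strand. Of all windows, 2.98% held an ISRE. The further capitals in Irgm1, 115 bases before the start, are an AP-1 match.

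**Figure D4:**
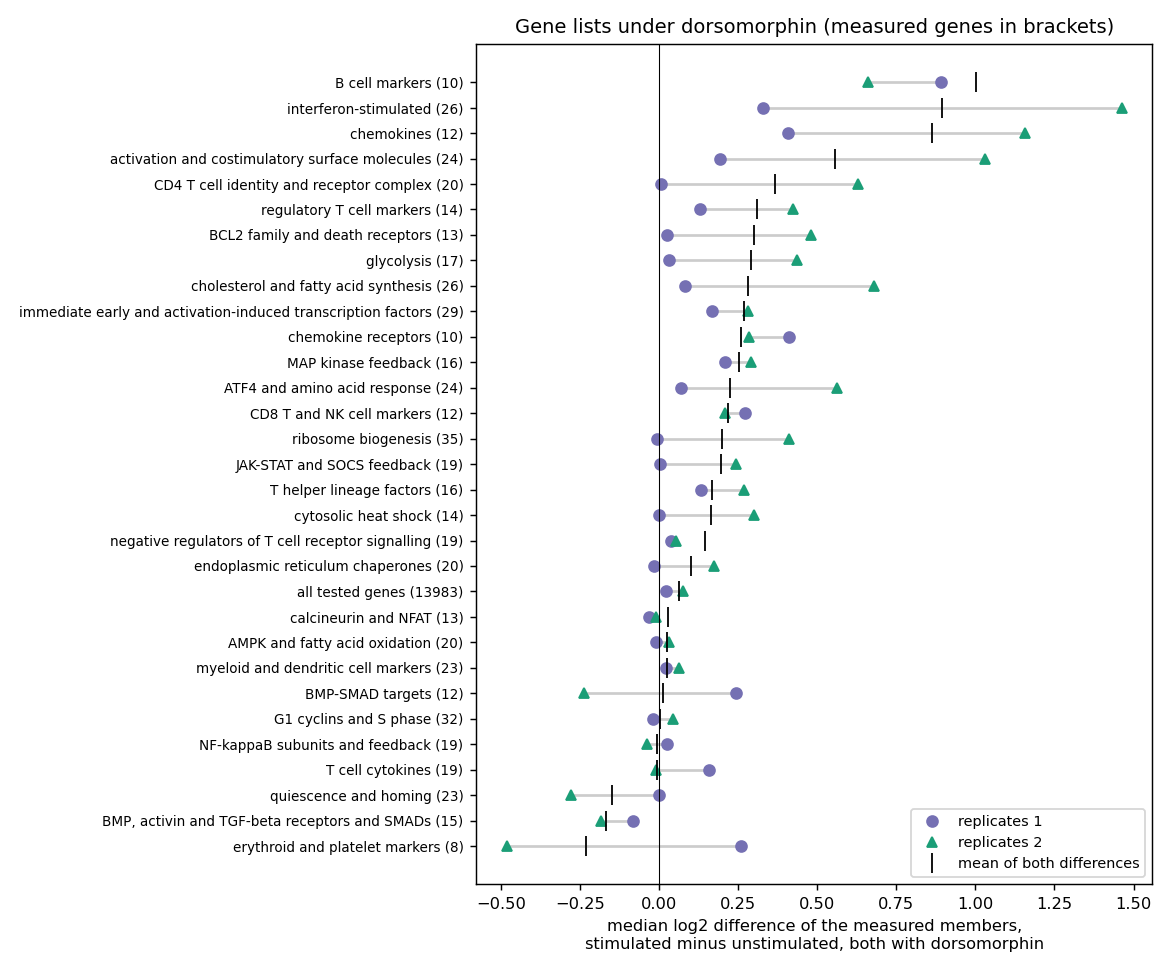
Median difference with stimulation under dorsomorphin (x axis, log2) of 30 gene lists and of all tested genes (y axis, measured genes in brackets); purple circles are the arrays numbered 1, green triangles those numbered 2 and black bars the mean of both differences. Interferon-stimulated genes run from 0.33 to 1.46 and surface molecules from 0.19 to 1.03, and the arrays numbered 1 lie near 0 for the biosynthesis lists.

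Ribosome biogenesis genes had a median of 0.20 over 35 genes, against 2.58 without dorsomorphin, where 32 were called up (8.98% of all genes). Under dorsomorphin 5 were separated upward and 1 downward, a share near that of all genes (15.1% and 8.98%). On stimulated dorsomorphin replicate 2, 27 of the 35 had their highest value. Rrp12, an rRNA processing factor, read 6.06 and 6.67 against 6.82 and 8.05, and Nop2, an rRNA methyltransferase, read 8.46 and 8.48 against 8.87 and 8.84. Both were separated, Nop2 evenly on both arrays. The list's median was -0.08 without replicate 2.

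Amino acid response genes under ATF4 had a median of 0.23 over 24 genes, with 8 separated upward and 1 downward (15.1% and 8.98% of all genes). After median centring 4 of the 24 were separated each way, where 1370 of all 13983 genes were separated upward and 2297 downward. The list's median ran from 0.13 to 0.42 with 1 of the 4 arrays left out. Phgdh, the first enzyme of serine synthesis, read 9.42 and 8.88 against 9.51 and 10.62, and Psph, its last enzyme, read 9.01 and 8.96 against 9.29 and 9.96. Glycolysis genes had a median of 0.29 over 17 genes, with 4 separated upward and 0 downward (15.1% and 8.98% of all genes). That median was 0.0030 without stimulated dorsomorphin replicate 2 and 0.67 without replicate 1. Aldoc, an aldolase, read 5.72 and 4.85 against 6.27 and 6.43.

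Cholesterol and fatty acid synthesis genes had a median of 0.28 over 26 genes, with 10 separated upward and 0 downward (15.1% and 8.98% of all genes). Dhcr7, the last enzyme of cholesterol synthesis, read 8.75 and 8.31 against 9.28 and 9.84, a difference of 1.03 ± 0.29 (SE; limma p 0.0132, adjusted p 0.917), where stimulation alone gave -0.20. Elovl6, a fatty acid elongase, read 5.16 and 3.57 against 6.93 and 7.13, at least 3.50-fold, and 0.22 without dorsomorphin. These genes were higher on both stimulated arrays. For this list the low array was dorsomorphin replicate 2, the lowest for 19 of the 26 genes, against 35.3% of all genes. Without that array the median was 0.03, and without dorsomorphin replicate 1 it was 0.67.

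Stimulation alone lowered quiescence and homing genes, with 15 of 23 called down (14.4% of all genes were) and a median of -1.94. Under dorsomorphin their median was -0.15. Of the 23, 4 were separated downward and 1 upward (8.98% and 15.1% of all genes). For 16 of the 23 the lowest value was on stimulated dorsomorphin replicate 2. Il7r, the interleukin 7 receptor that marks resting T cells, read 13.84 and 13.47 against 13.71 and 11.93, and Tob1, an inhibitor of proliferation, read 13.69 and 13.67 against 13.63 and 12.11. Both were low on replicate 2 only, and without that array the list's median was 0.04.

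T cell identity genes had a median of 0.37, with all 20 differences above 0 as deposited (57.5% of all genes). Among them 7 were separated upward and 0 downward (15.1% and 8.98% of all genes). After median centring 7 were separated upward and 1 downward, where 1370 and 2297 of all 13983 genes were. Under each of the 3 other scalings Cd3e and Cd4 were below 0, and the list's median lay between 0.22 and 0.35. Of the 20, 19 had their lowest value on dorsomorphin replicate 2, against 35.3% of all genes. Cd5, an inhibitory receptor whose level follows receptor signalling, read 11.11 and 10.58 against 11.41 and 11.92. The summed signal of this list was 91823 and 70420 in unstimulated and 96366 and 101593 in stimulated cells, and without dorsomorphin replicate 2 its median was 0.06. Regulatory T cell markers had a median of 0.31 over 14 genes, with 6 separated upward and 0 downward (15.1% and 8.98% of all genes). That median was 0.15 without stimulated dorsomorphin replicate 2. Foxp3, the lineage factor of regulatory T cells, read 7.36 and 7.17 against 7.88 and 8.36, a difference of 0.85 ± 0.43 (SE). Capg, a capping protein of that list, read 9.35 and 8.93 against 9.80 and 9.81.

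Genes of the BMP pathway, a known target of the inhibitor, showed small differences. Receptors and SMADs had a median of -0.17 over 15 genes, with 6 separated downward and 2 upward (8.98% and 15.1% of all genes). The median of all genes was 0.06, and that of the list stayed below 0 under the 3 other scalings. Acvr1, the type I receptor ALK2, read 7.66 and 7.63 against 7.46 and 7.15, and Smad1 read 10.62 and 10.71 against 10.53 and 10.49. BMP-SMAD target genes had a median of 0.01 over 12 genes, which became negative under each other scaling. Over the 8 genes above the floor on all 4 arrays it was -0.34. Of the 12, 3 were separated upward and 2 downward (15.1% and 8.98% of all genes).

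Id2 and Id3, inhibitors of E proteins and BMP targets, were among those separated upward. Id2 read 11.79 and 11.24 against 12.19 and 12.22, a difference of 0.69 ± 0.33 (SE), and Id3 read 5.99 and 6.69 against 7.40 and 6.80. Id1 read 5.21 and 4.07 against 4.95 and 5.82 and overlapped. Smad7, the inhibitory SMAD, read 12.26 and 12.22 against 12.23 and 11.05 and overlapped too. Rcan1, a calcineurin target, read 5.99 and 5.79 against 5.88 and 6.33, a difference of 0.22 ± 0.26 (SE). Smad6 was above the floor on 1 array only and was not tested.

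The other 12 lists had medians from -0.01 to 0.30: chemokine receptors 0.26, NF-kappaB subunits and feedback -0.01, calcineurin and NFAT 0.03, MAP kinase feedback 0.25, negative regulators of receptor signalling 0.14, JAK-STAT and SOCS feedback 0.19, BCL2 family and death receptors 0.30 (0.07 over the 11 above the floor on all 4 arrays), endoplasmic reticulum chaperones 0.10, cytosolic heat shock 0.16, G1 cyclins and S phase genes 0.00, AMPK and fatty acid oxidation genes 0.02 and T helper lineage factors 0.17. The signs of the NF-kappaB, calcineurin, chaperone, cell cycle and AMPK lists turned under at least 1 other scaling. Leaving out 1 dorsomorphin-treated array also turned the sign of each of these lists except the chemokine receptors, the BCL2 family and the T helper factors. Among their members, Cdk6, a G1 cyclin-dependent kinase, read 7.54 and 7.58 against 8.09 and 9.13, a difference of 1.05 ± 0.37 (SE) where stimulation alone gave 2.84. Ikzf3, a zinc finger lymphoid factor, read 10.34 and 10.10 against 10.83 and 11.19. Both were higher on both stimulated arrays.

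Markers of other cells were set beside these results, and their part in them was not tested. Of 10 measured B cell markers, 9 had a difference above 0 (57.5% of all genes) and 5 were separated upward (15.1% of all genes). Their median was 1.003. Only 4 of the 10 lay above the floor on all 4 arrays, with a median of 0.18, and raising dim values to the floor gave 0.38. Ms4a1 (CD20) read 5.24 and 5.16 against 6.29 and 6.81, a difference of 1.35 ± 0.26 (SE; limma p 0.00206, adjusted p 0.516). The other probe set of Ms4a1 had a difference of 0.27 and was not separated upward. Fcer2a (CD23) read 4.45 and 3.96 against 5.44 and 6.25, while its other probe set had a difference of -0.49, and Cd22 read 5.90 and 6.18 against 6.70 and 6.92. Cd79a stayed under the floor on all 4 arrays, and Ebf1, Cr2 and Ighd were too dim to be tested.

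Summed over the 10 B cell markers, the signal was 4199 and 11711 in unstimulated and 4918 and 8707 in stimulated cells, most of it from Ighm. Ighm did not rise with the others: its difference ran from -0.96 to 0.62 with 1 array left out. Without Ighm the 9 others summed to 396 and 379 against 678 and 652. In unstimulated cells these sums stand near the floor, a signal of 37.3 per gene. The sums without Ighm were alike on both arrays of a group, unlike those of the interferon list.

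Myeloid and dendritic cell markers summed to 5639 and 6080 against 5713 and 6989. Of these 23 markers, 3 were separated upward and 2 downward, near the shares of all genes (15.1% and 8.98%). Their median was 0.02 and turned negative under each other scaling. CD8 T and NK cell markers summed to 1320 and 1095 against 1496 and 1261. Among these 12 markers, 3 were separated upward and 0 downward (15.1% and 8.98% of all genes). Their median was 0.22, and 0.0060 without dorsomorphin replicate 2, 0.05 without stimulated dorsomorphin replicate 1 and 0.07 with dim values raised to the floor. Erythroid and platelet markers summed to 850 and 1489 against 936 and 1124, with 1 of 8 separated each way (15.1% of all genes upward and 8.98% downward). Their median was -0.23, and 0.0019 over the 5 above the floor on all 4 arrays.

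The 12 genes that rose most and the 12 that fell most with stimulation alone were taken among called genes. They lay above the floor on all 4 arrays without dorsomorphin, and genes whose symbols name clones were left out. All 12 that rose had a difference above 0 under dorsomorphin (57.5% of all genes did), with 5 separated upward (15.1% of all genes). Their differences ran from 0.45 to 1.96 with a median of 1.05, 2.07-fold, against a median of 5.83 without dorsomorphin. With values under the floor raised to it, the differences were between 5.20% (Il4) and 30.3% (Irf4) of the log2 response without dorsomorphin, with a median of 17.4%. Mettl1, a tRNA methyltransferase, had 8.48%, and Il17a had 22.7%. Sema7a, a semaphorin of activated T cells, read 5.96 and 7.34 against 6.57 and 8.80 and overlapped. The shared sign rested on stimulated dorsomorphin replicate 2 in part. Without that array Xcl1 (-0.77), Il2ra (-0.18), Mettl1 (-0.038) and Sema7a (-0.082) were below 0, and the rest of the 12 stayed above it. Of the 12 genes that fell most, 11 had a difference below 0 (42.5% of all genes did), the exception being Tubb2b with 0.30. Of these 12, 1 was separated downward (8.98% of all genes were). Their median was -0.44 against -4.55. Rflnb, an actin regulator, read 13.70 and 12.78 against 13.33 and 10.46, low on replicate 2.

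Among genes above the floor on all 4 arrays, the widest gaps after Egr3 were those of Pkdcc, Pth2, Nmral1 and Arhgap26. Pkdcc, a secreted kinase, read 5.86 and 5.50 against 7.003 and 7.19, a difference of 1.42 ± 0.27 (SE), where stimulation alone gave -0.95. Nmral1, a redox sensor, read 5.29 and 5.66 against 6.67 and 6.96, and Arhgap26, a GTPase-activating protein, read 5.97 and 5.52 against 7.28 and 6.97. At higher levels, Ly75 (DEC-205), an endocytic receptor, read 7.84 and 7.63 against 8.65 and 9.25, and the transcription factor Myb read 9.37 and 8.61 against 10.19 and 10.57. Of the 20 genes with the widest upward gaps in this class, symbols that name clones left out, 10 had a difference above 0 without dorsomorphin. On the lower side the 1 gene with a gap over 1 log2 unit was Sema6c, with 6.76 and 6.88 against 5.27 and 5.29, but 2 of its 3 probe sets had a difference above 0. Pik3r2, a regulatory subunit of PI3 kinase, read 7.06 and 7.42 against 5.39 and 6.23. The ubiquitin ligase gene Wwp1 read 10.75 and 11.10 against 10.16 and 9.53, a difference of -1.08 ± 0.31 (SE; limma p 0.0131, adjusted p 0.917).

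The 3 genes with the smallest adjusted p were all dim on 1 side. Galnt9, a glycosyltransferase, read 2.30 and 2.83 against 5.92 and 6.10, at least 1.73-fold. Metrnl, a secreted factor, read 2.93 and 2.40 against 6.25 and 6.61, at least 2.31-fold, but its 3 probe sets ran from -2.80 to 3.76. Actrt3, an actin-related protein, read 5.36 and 5.35 against 2.37 and 2.61, at least 1.10-fold, and its other probe set had a difference of 1.26. Among tested genes whose symbols do not name clones, the 20 with the widest gaps upward were under the floor on both unstimulated arrays. Their bounds ran from 1.10-fold to 4.13-fold. The largest of these bounds was for Hif3a, a hypoxia-inducible factor subunit, with 4.69 and 4.999 against 7.27 and 7.27. Chosen in the same way, the 20 widest downward were all under the floor in stimulated cells, with bounds from 1.07-fold to 2.88-fold.

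The test of whether the stimulation effect differed with dorsomorphin passed limma at an adjusted p of 0.05 for 12 genes (0.0858%), 5 with a more positive and 7 with a more negative effect under dorsomorphin. Egr2, Myc and Spry1 rose less with it, by 5.14, 3.26 and 5.29 log2 units (limma adjusted p 0.0492, 0.0492 and 0.0405). Galnt9 fell with stimulation alone, from 8.34 and 8.18 to 5.31 and 5.35, and passed too (limma adjusted p 0.0349), with a difference of effects of at least 3.72 when its dim values are raised to the floor. These calls depended on the fit. No gene passed with no filter on low values or in 7 of the 8 fits that left out 1 array, and 803 passed without stimulated replicate 1. The count was 23 after median centring, 204 after loess, 737 after quantile normalization and 2036 in a robust fit with a variance trend.

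**Figure D5:**
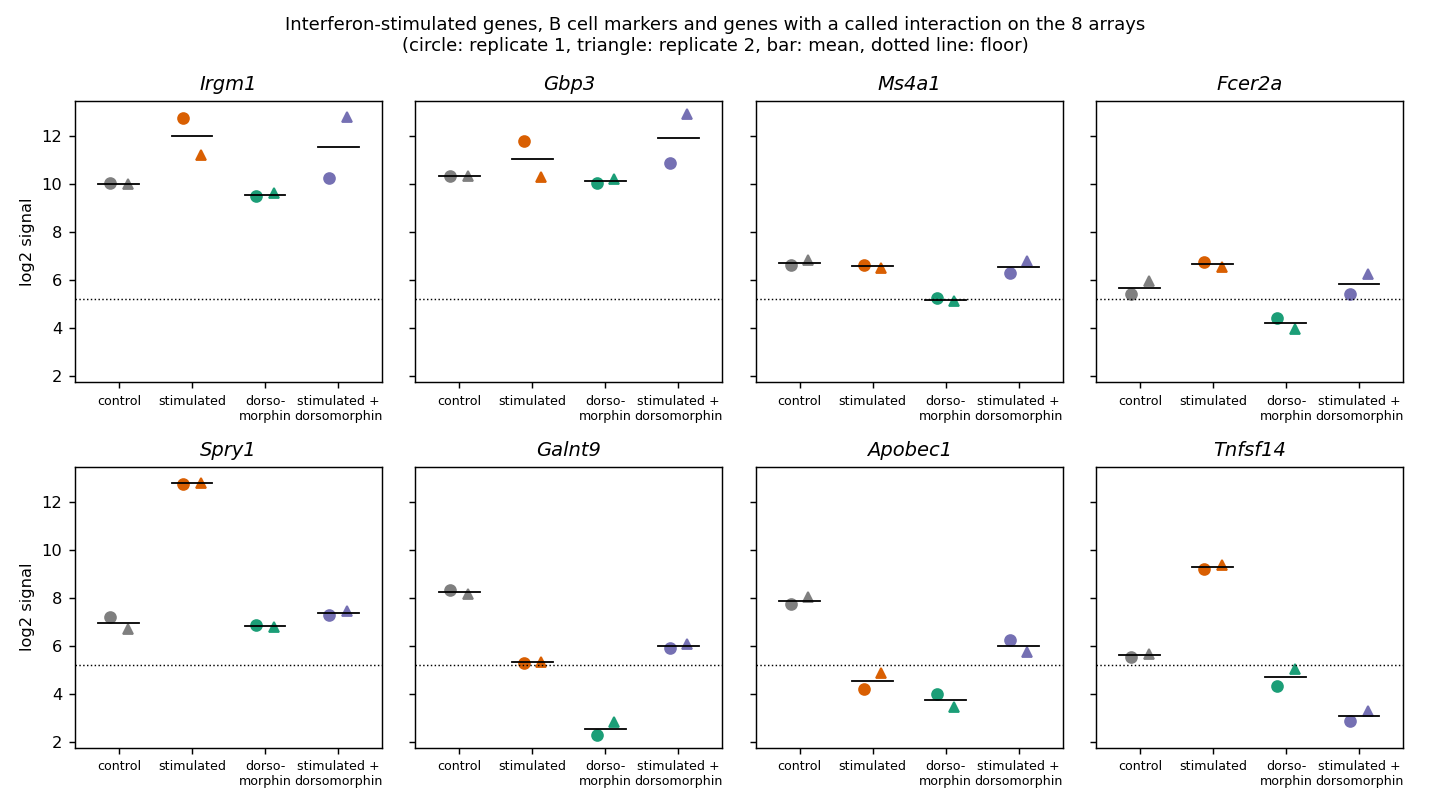
Log2 signal (y axis) of 2 interferon-stimulated genes, 2 B cell markers and 4 genes with a called difference of stimulation effects, in the 4 groups with 2 arrays each; circles are replicate 1, triangles replicate 2, bars the group mean and the dotted line the floor at log2 5.22. Irgm1 and Gbp3 are far higher on stimulated dorsomorphin replicate 2 than on replicate 1, Ms4a1 and Fcer2a are higher on both, and Tnfsf14 lies under the floor with dorsomorphin.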

How the data were processed

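The 8 arrays were Affymetrix GeneChips with 45101 probe sets, hybridised with total RNA of CD4+ T cells. The values are intensity values on a linear scale, as deposited by the authors. RMA and affy are named in the submitters' processing notes, with no version, but the deposited values are linear and each array has a 2% trimmed mean of 500, a step not given in the sources used here. Groups came from the treatment labels, 4 groups of 2 arrays.

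Probe sets were named from the platform annotation: 34945 had 1 gene symbol, 932 several and 9160 none, and 64 were controls. The probe set with the highest mean over 8 arrays stood for each of 18193 genes. Genes above the 40th percentile on at least 2 arrays, 13983, were tested on log2 intensity with no pseudocount by limma 3.58.1 (R 4.3.3) in 1 fit over all 4 groups, with Benjamini-Hochberg adjustment over all of them. The procedure was tested on simulated data. "At least N-fold" sets the mean of the brighter group against the floor.

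The members and lists were chosen with earlier results of these data known. Genes were named by a rule: the 5 smallest p and the 20 widest gaps each way. It also took up to 4 members per list with a gap of at least 0.5 and a fixed set of 22 genes. The last part was the 12 that changed most each way with stimulation alone. Genes whose symbols name clones were left out of the p, gap and stimulation rankings, and beside the gap limit of 1 log2 unit. Irf8, Cd274, Tnfrsf18, Gbp2, Iigp1, Rrp12, Nop2, Phgdh, Psph, Tob1, Cd5, Capg, Dusp2, Ikzf3, Acvr1, Smad1, Pkdcc, Pth2, Nmral1, Arhgap26, Myb, Ly75, Sema6c, Pik3r2, Apobec1, Tnfsf14 and others beside that rule were chosen after their values were seen. So were the 4 promoters and the CArG and ISRE motifs. Alternatives were other scalings, an offset, filters, the choice of probe set, a replicate block and, in separate fits, leaving out each array. Raising values under the floor to it was added after seeing the data.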

Additional observations from a re-analysis of the deposited data

Results flagged for a closer look

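The stimulation effect differed with dorsomorphin, by limma's test of the difference of effects, for 6 genes named here. All 6 calls were lost with no filter on low values and in 7 of the 8 fits that left out 1 array, where no gene passed. Effects are log2, with dorsomorphin minus without. Egr2 had a difference of -5.14, Myc of -3.26 and Spry1 of -5.29. Galnt9 had 6.37, and at least 3.72 with values under the floor raised to it. Apobec1, an RNA-editing cytidine deaminase, had 5.61: it read 7.76 and 8.03 in control and 4.20 and 4.87 in stimulated cells, and 4.01 and 3.47 against 6.24 and 5.75 with dorsomorphin, so that 4 of its 8 arrays were under the floor and the difference of effects was at least 3.45 with these raised to it. Tnfsf14 (LIGHT), a ligand of the TNF family, had a fitted -5.28, part of which comes from values under the floor: it read 5.55 and 5.68 against 9.20 and 9.36 without dorsomorphin, and lay under the floor on all 4 arrays with it, where no difference was read.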

How the results depend on the processing

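No gene passed an adjusted p of 0.05 under the other settings either, except that testing only genes above the 60th percentile gave 2 genes called up, Galnt9 and Metrnl (limma adjusted p 0.0128). The counts at an unadjusted p under 0.05 ran from 301 to 957 over the settings.

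The 125 genes with an upward gap of at least 1 became 53 after cyclic loess, 22 on log2(signal + 32), 30 with the 60th percentile filter, 189 by both same-numbered differences, 370 at a gap of 0.5, 30 at a gap of 2 and 5 with all 4 arrays above the floor. The 48 downward became 73 after median centring, 29 after loess, 83 after quantile normalization, 9 on log2(signal + 32), 2 with the 60th percentile filter, 133 at a gap of 0.5, 16 at a gap of 2 and 1 with all 4 arrays above the floor. Leaving out 1 array gave 371 to 614 upward and 179 to 356 downward, since 1 array then stands for a group.

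The shift of the called-down genes was -0.20 after centring, -0.12 after loess, -0.093 after quantile normalization, and -0.20 to 0.13 with 1 array left out. The correlation of both stimulation differences was 0.224 with the 60th percentile filter, 0.258 with all 4 arrays above the floor, 0.0045 from the arrays numbered 1, and -0.0622 to 0.212 with 1 array left out. Among the genes that the naming rule gave, 4 had a called difference of stimulation effects, and this count was 7 after centring, 9 after loess, 19 after quantile normalization, 36 on log2(signal + 32), 0 with no filter, 32 with the 60th percentile filter, 2 with the mean of all probe sets, 36 in a robust fit with a variance trend, and 0 to 23 with 1 array left out. The cause of these changes was not tested.

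No source used here says whether replicate numbers pair the samples. Deviations of same-numbered arrays correlated at 0.0687 to 0.178, with the highest for the 2 groups compared here. The median signal was lower on replicate 2 in every group. These values do not decide whether the arrays are paired. With the replicate block, 0 genes were called for stimulation under dorsomorphin, 689 had an unadjusted p under 0.05, the smallest limma adjusted p was 0.212, and 0 of the genes the rule gave had a called difference of effects.

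Of 92 named genes, 68 kept the sign of their difference under every setting run, and 51 of 1633 gene values turned, none of them past the threshold. Il2 was -0.14 after centring, -0.13 after loess and -0.23 after quantile normalization. Cd3e was -0.13, -0.0071 and -0.061 in that order, Cd4 was -0.060, -0.00050 and -0.050, and Junb was -0.043 after centring. Cd69 was 0.021 after quantile normalization. With the mean of all probe sets Smad7 was 0.041, Rcan1 -0.67, Sema6c 0.34, Cd4 -0.43, Cd8a 0.18 and Sema7a -0.54. With 1 array left out the ranges that crossed 0 were Il2 -1.15 to 1.17, Jun -1.52 to 0.58, Jund -0.92 to 0.35, Cd69 -0.57 to 0.55, Cd3e -0.55 to 0.58, Cd4 -0.65 to 0.82, Fos -0.71 to 1.06, Fosb -0.72 to 1.10, Fosl1 -0.49 to 0.44, Il3 -1.63 to 1.00, Ighm -0.96 to 0.62, Tubb2b -0.39 to 0.98, Junb -0.059 to 0.26, Egr4 -0.28 to 1.90, Xcl1 -0.77 to 2.40, Il2ra -0.18 to 2.38, Rcan1 -0.0086 to 0.44, Cd8a -2.15 to 0.19, Il7r -1.72 to 0.049, Mettl1 -0.038 to 0.94, Sema7a -0.082 to 2.14 and Rflnb -2.79 to 0.092. With 2 arrays per group the fit recovered 0% of simulated 2-fold and 30% of simulated 4-fold changes in this comparison, and genes under the floor have only a bound.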
